A study of Sus scrofa with 4 samples.

Results

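The genes described here encode the transcription coactivators YAP1 and WWTR1 (the gene of TAZ), their DNA-binding partners TEAD1, TEAD2, TEAD3 and TEAD4, the kinases LATS1 and LATS2, and AMOTL2 and ANKRD1, 2 target genes of the coactivators. They were taken by gene name from the table of counts, and all 10 were among its 29837 named genes. RNA was sequenced from epidermal cells of 2 juvenile pigs, 88R and 95R, sorted by flow cytometry into an LGR5-high (GFP-hi) and an LGR5-negative (GFP-neg) population. The pigs of the model carry H2B-GFP, a green fluorescent histone, knocked into exon 1 of one LGR5 allele, so cells of both populations hold the reporter and the other allele stays unedited. The founders came from clonal cell lines by somatic cell nuclear transfer, and the sources used here do not give whether pigs 88R and 95R were founders or progeny. No treatment was applied, and each pig gave 1 library of each population.

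In the Hippo pathway, a cascade of kinases ends in LATS1 and LATS2, which phosphorylate YAP1 and TAZ and so keep them out of the nucleus. Unphosphorylated YAP1 and TAZ enter the nucleus and bind TEAD factors, and the complex switches on genes of growth, adhesion and cell shape. In skin, YAP1 is known for its part in the growth of basal epidermal cells and in the response to mechanical tension. Much of this control acts on the protein, which RNA levels do not show.

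The libraries held between 30696803 and 32463362 counts on named genes. CPM stands for counts scaled by library size and by edgeR's TMM factors, and the floor of 3 counts used here came to 0.0873 CPM in the library where it was lowest and 0.105 CPM where it was highest. The keratinocyte genes KRT5, TP63 and CDH1 were high in both populations and were not called different, so these defining markers of the labelled tissue were present. KRT15, of the same list, had 1120 and 2350 CPM in LGR5-high and 715 and 1320 CPM in LGR5-negative (pigs 88R and 95R). In edgeR's quasi-likelihood test its log2 fold change was 0.76 (adjusted p = 0.187). With the pig as a replicate block KRT15 was called higher (0.73, adjusted p = 2.13e-06). In bulk libraries, fewer cells of a type and less RNA per cell cannot be told apart. The sources do not say that the populations were sorted on separate occasions, and 2 libraries in each population give p-values that measure only the spread between these 2 pigs.

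Across the Hippo effectors, TEAD2 was the member that was higher in LGR5-high and AMOTL2 the member that was lower. A gene was called at an adjusted p-value under 0.05, from the quasi-likelihood test of edgeR adjusted by Benjamini-Hochberg over all 15980 genes tested. Of the 9 members that passed the filter on low counts, 1 was called higher and 1 lower, beside 22.7% of all tested genes called higher and 22.0% called lower. With the pig as a replicate block, 5 were called higher and 2 lower, beside 28.5% and 27.2% of all tested genes. The median log2 fold change of the 9 members was 0.28, beside 0.02 for all tested genes.

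**Figure D1:**
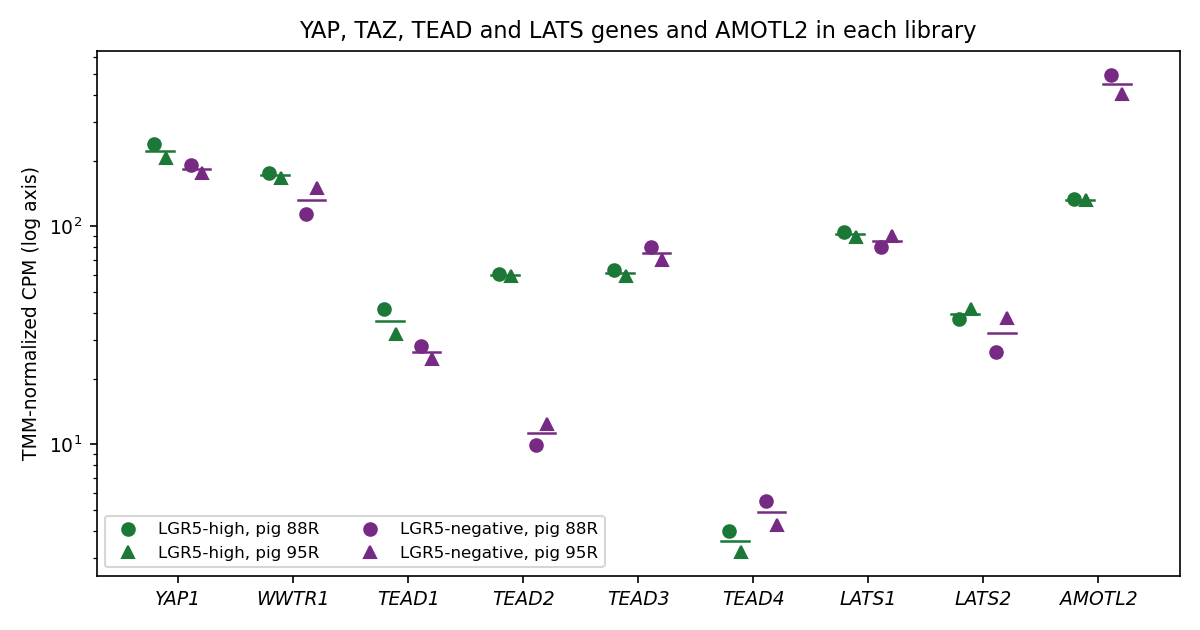
Normalized CPM (log axis) of 9 members in each library. Green symbols are LGR5-high and purple symbols LGR5-negative, circles are pig 88R, triangles are pig 95R, and lines are the means of the 2 pigs. TEAD2 lay at 59.3 and 60.2 CPM in LGR5-high against 9.97 and 12.4 CPM in LGR5-negative, while AMOTL2 lay at 132 and 133 CPM against 404 and 496 CPM.

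YAP1 is the coactivator at the end of the pathway. It had 239 CPM in pig 88R and 205 CPM in pig 95R in LGR5-high, and 191 and 176 CPM in LGR5-negative. Both LGR5-high libraries were above both LGR5-negative libraries, by a margin smaller than the difference between the 2 pigs in LGR5-high. The log2 fold change was 0.28 (standard error 0.104, 95% confidence interval 0.02 to 0.53, adjusted p = 0.0766), and YAP1 was not called. With the replicate block it was called higher, at a log2 fold change of 0.27 (standard error 0.0894, adjusted p = 0.0152).

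WWTR1, the gene of the coactivator TAZ, had 175 CPM in pig 88R and 167 CPM in pig 95R in LGR5-high. In LGR5-negative it had 114 and 150 CPM. The populations did not overlap, and the LGR5-negative library of pig 88R stood lowest. The log2 fold change was 0.37 (adjusted p = 0.0755, standard error 0.139), at 0.62 in pig 88R and 0.15 in pig 95R, and WWTR1 was not called. With the replicate block it was called higher (log2 fold change 0.39, adjusted p = 0.005). Leaving out 1 library moved the log2 fold change to between 0.18, without the LGR5-negative library of pig 88R, and 0.58, without that of pig 95R.
Within each library, the ratio of WWTR1 to YAP1 counts does not depend on the scaling. It was 0.731 and 0.814 in LGR5-high and 0.597 and 0.852 in LGR5-negative, so the LGR5-high values lay inside the range of LGR5-negative.

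TEAD1, a TEAD factor of many tissues, had 41.7 CPM in pig 88R and 32.0 CPM in pig 95R in LGR5-high, and 28.2 and 24.6 CPM in LGR5-negative. The populations did not overlap. The log2 fold change was 0.48 (standard error 0.159, 95% confidence interval 0.09 to 0.88, adjusted p = 0.0537), just outside the threshold, and 0.47 with the replicate block (adjusted p = 0.00184), where it was called higher. Leaving out 1 library moved the log2 fold change to between 0.27, without the LGR5-high library of pig 88R, and 0.67, without that of pig 95R.

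TEAD2, the TEAD factor known best from the early embryo, had 2070 counts in pig 88R and 1959 in pig 95R in LGR5-high, and 284 and 374 in LGR5-negative. As normalized values, the LGR5-high mean was 59.8 ± 0.647 CPM (SD, n = 2 pigs), and the LGR5-negative mean was 11.2 ± 1.7 CPM. The LGR5-high libraries lay close together and far above both LGR5-negative libraries. TEAD2 rose 5.34-fold, a log2 fold change of 2.42 (standard error 0.134, adjusted p = 1.43e-04), at 2.59 in pig 88R and 2.25 in pig 95R. Among all tested genes, 6.81% had a larger estimated increase.

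TEAD3, a TEAD factor known from placenta and epithelia, had 62.9 CPM in pig 88R and 59.0 CPM in pig 95R in LGR5-high, and 80.0 and 70.1 CPM in LGR5-negative. Both LGR5-high libraries were below both LGR5-negative libraries. The estimated log2 fold change was -0.30 (adjusted p = 0.0543, standard error 0.0996), and TEAD3 was called lower with the replicate block (-0.30, adjusted p = 0.012). Leaving out 1 library gave between -0.40, without the LGR5-negative library of pig 95R, and -0.21, without that of pig 88R. TEAD4 had 4.01 and 3.21 CPM in LGR5-high and 5.51 and 4.24 CPM in LGR5-negative. Its populations did not overlap either, and its log2 fold change of -0.43 had a 95% confidence interval of -1.05 to 0.19 (adjusted p = 0.21, and 0.114 with the replicate block).

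The make-up of the TEAD counts differed between the populations in both pigs. TEAD2 held 35.7% of the counts on the TEAD genes in pig 88R and 38.6% in pig 95R in LGR5-high, against 8.06% and 11.1% in LGR5-negative. The share of TEAD3 was 37.2% and 38.4% in LGR5-high and 64.7% and 63.0% in LGR5-negative. TEAD1 held between 20.8% and 24.7% in every library, with overlapping populations, and TEAD4 between 2.09% and 4.46%. Within a library, the ratio of TEAD2 to TEAD3 counts was 0.958 and 1.01 in LGR5-high and 0.125 and 0.177 in LGR5-negative. Longer transcripts gather more counts and no transcript lengths were used here, so these shares compare libraries and do not rank the TEAD genes. Together the TEAD genes had 169 and 153 CPM in LGR5-high and 124 and 111 CPM in LGR5-negative. An exact permutation test of 2 against 2 libraries cannot go below a 2-sided p of 0.333, so the shares and ratios were not tested.

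**Figure D2:**
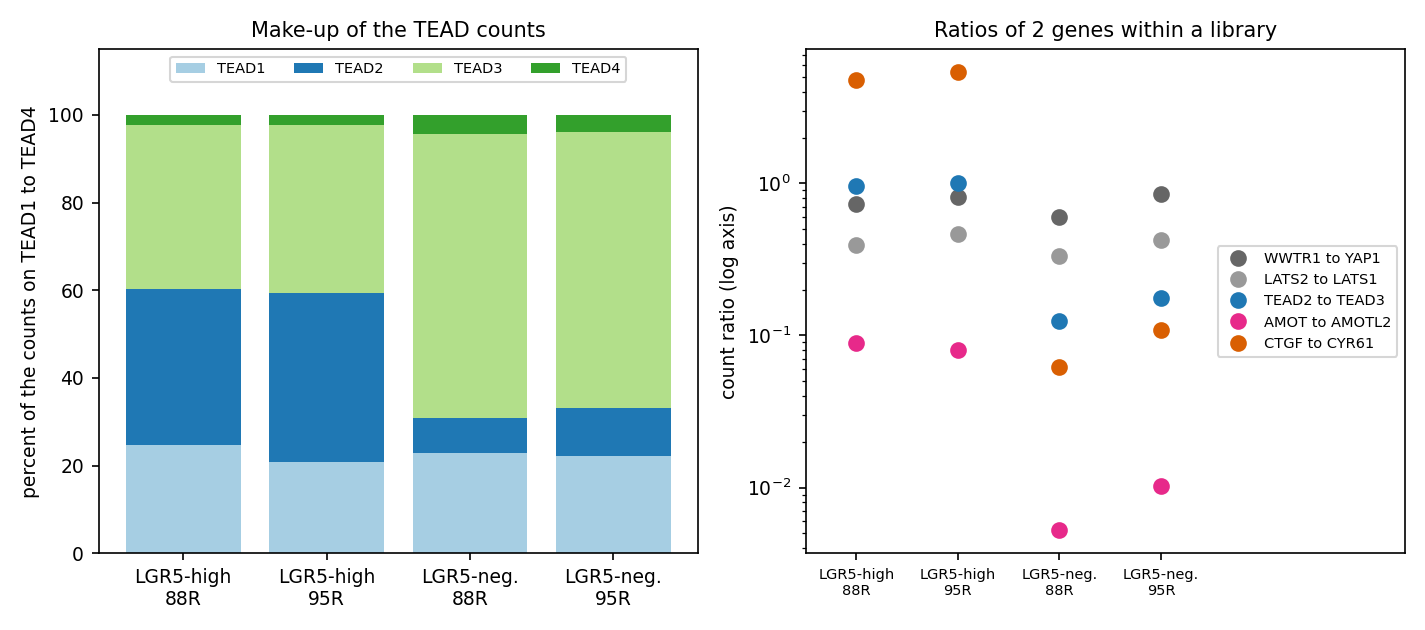
Left, the percent of all TEAD1 to TEAD4 counts that fell on each gene, as stacked bars for each library. Right, the ratio of the counts of 2 genes within each library (log axis), 1 color for each pair: TEAD2 to TEAD3, AMOT to AMOTL2 and CTGF to CYR61 were higher in both LGR5-high libraries than in either LGR5-negative library, while WWTR1 to YAP1 and LATS2 to LATS1 overlapped.

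The kinases LATS1 and LATS2 phosphorylate YAP1 and TAZ, and LATS2 is also a target gene of both. LATS1 had 94.4 CPM in pig 88R and 89.6 CPM in pig 95R in LGR5-high, and 80.5 and 89.9 CPM in LGR5-negative. The populations overlapped, since pig 95R had nearly the same value in both. The log2 fold change of LATS1 was 0.11 (adjusted p = 0.361, standard error 0.0902), with a 95% confidence interval of -0.11 to 0.33. LATS2 had 37.4 CPM in pig 88R and 41.5 CPM in pig 95R in LGR5-high, and 26.6 and 38.1 CPM in LGR5-negative. Here too the populations overlapped, and within each pig the LGR5-high library was higher. The log2 fold change of LATS2 was 0.28 (adjusted p = 0.251, standard error 0.182), at 0.49 in pig 88R and 0.12 in pig 95R. LATS2 was called higher with the replicate block (0.30, adjusted p = 0.0361) and without the LGR5-negative library of pig 95R (0.56, adjusted p = 0.021). With the same block in DESeq2, LATS2 was not called (adjusted p = 0.187), nor were YAP1 (adjusted p = 0.0514) and TEAD3 (adjusted p = 0.0718), while WWTR1 (adjusted p = 0.0196) and TEAD1 (adjusted p = 0.0251) were called. That fit called 3 members higher and 1 lower, beside 18.8% and 19.7% of all tested genes. The ratio of LATS2 to LATS1 counts was 0.396 and 0.463 in LGR5-high and 0.331 and 0.424 in LGR5-negative.

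AMOTL2 encodes an angiomotin family protein of cell junctions that binds YAP1 and holds it outside the nucleus, and its gene is itself switched on by YAP1. It had 4559 counts in pig 88R and 4347 in pig 95R in LGR5-high, and 14127 and 12204 in LGR5-negative. The LGR5-high mean was 132 ± 0.729 CPM (SD, n = 2 pigs), and the LGR5-negative mean was 450 ± 65 CPM. Both LGR5-negative libraries lay far above both LGR5-high libraries. AMOTL2 was 3.40-fold lower in LGR5-high, a log2 fold change of -1.77 (standard error 0.117, adjusted p = 2.32e-04), at -1.90 in pig 88R and -1.62 in pig 95R. Among all tested genes, 4.51% had a larger estimated decrease.
ANKRD1, a nuclear ankyrin repeat protein of heart muscle whose gene is a common readout of YAP1 activity in cultured cells, had 0 counts in both libraries of pig 88R and 1 count in both libraries of pig 95R. This is under the floor of 3 counts in every library, so ANKRD1 was not detectable at this depth in either population, and it was not tested.

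**Figure D3:**
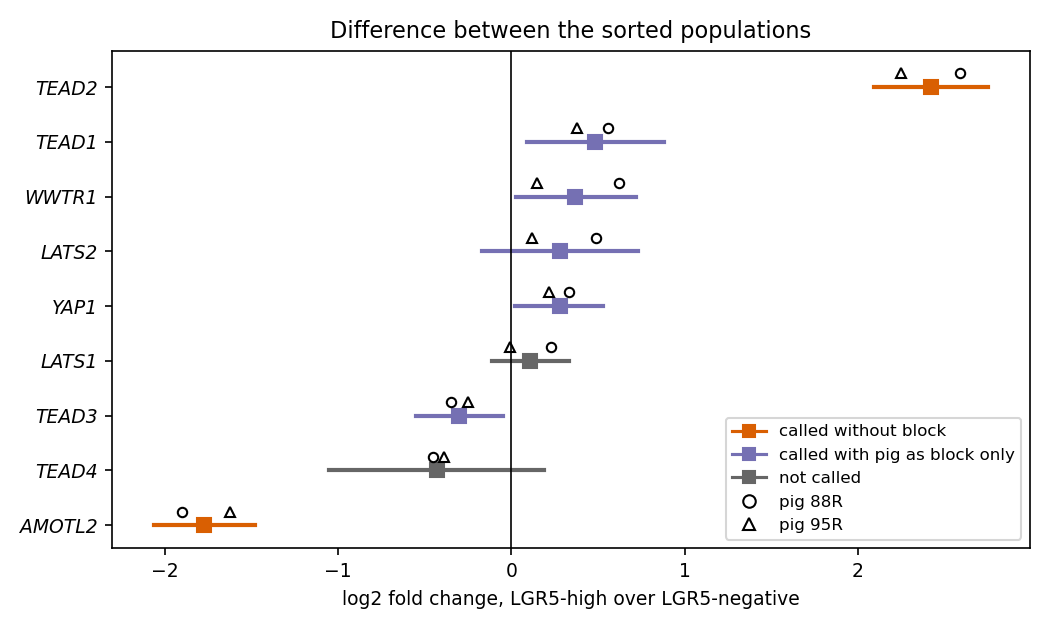
Log2 fold change of LGR5-high over LGR5-negative for the 9 members tested. Squares with bars are the estimate of edgeR's quasi-likelihood test without the block and its 95% confidence interval, open circles and triangles are pigs 88R and 95R, and color marks how the gene was called. TEAD2 at 2.42 and AMOTL2 at -1.77 were called without the block, and every other member lay between -0.43 and 0.48.

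The scaling between libraries bears on the small differences. When TMM was replaced by library size only, the median of all tested genes moved from 0.02 to 0.24, and 5 members were called higher and 1 lower, beside 34.2% and 14.6% of all tested genes. Under that scaling YAP1 had a log2 fold change of 0.50, WWTR1 0.60 and TEAD1 0.71, while TEAD3 had -0.08. With upper quartile scaling, where the median was 0.11, 4 members were called higher and 1 lower, beside 26.9% and 18.3% of all tested genes. TEAD2 and AMOTL2 kept their direction and their call under every scaling.

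The regulators upstream of YAP1 and TAZ were found on both sides. All 30 regulators listed were tested, and 7 were called higher and 14 lower, beside 22.7% and 22.0% of all tested genes, so the higher regulators were near that share. The median log2 fold change of the list was -0.20. With the replicate block the counts were the same, beside 28.5% and 27.2% of all tested genes. With library size only, 7 were called higher and 6 lower, beside 34.2% and 14.6% of all tested genes, so the number of lower regulators depended on the scaling. Fewer regulators were called lower when any library was left out, and fewer of all tested genes were called lower there as well. Without the LGR5-high library of pig 95R, fewer regulators were called lower than higher.

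Among the higher regulators were the giant cadherins at the start of the pathway. DCHS1, a cadherin that binds FAT4 on the neighbouring cell, had 30.7 CPM in pig 88R and 29.1 CPM in pig 95R in LGR5-high, and 2.11 and 4.93 CPM in LGR5-negative. The estimated log2 fold change was 3.08 (adjusted p = 0.00154, standard error 0.364). FAT4, its receptor, had 36.0 and 32.1 CPM in LGR5-high and 8.07 and 4.27 CPM in LGR5-negative, a log2 fold change of 2.47 (standard error 0.294, adjusted p = 0.00158). FAT1, another giant cadherin, rose by a log2 fold change of 1.18 (standard error 0.121, adjusted p = 9.38e-04). FAT1 had 309 and 254 CPM in LGR5-high and 118 and 131 CPM in LGR5-negative. WTIP, an Ajuba family protein that holds back LATS kinases, rose by a log2 fold change of 2.02 (adjusted p = 0.00207), and the kinase gene MAP4K4 by 0.69 (adjusted p = 0.00952).

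The angiomotin genes moved in opposite directions. AMOT, the founding member, had 11.8 CPM in pig 88R and 10.5 CPM in pig 95R in LGR5-high, and 2.60 and 4.14 CPM in LGR5-negative. The estimated log2 fold change was 1.73 (adjusted p = 0.00376, standard error 0.26), against -1.77 for AMOTL2 and -0.09 for AMOTL1 (adjusted p = 0.386), whose 95% confidence interval was -0.27 to 0.10. Within a library, the ratio of AMOT to AMOTL2 counts was 0.0891 and 0.0798 in LGR5-high and 0.00524 and 0.0102 in LGR5-negative.

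Lower in LGR5-high were all 3 genes of the WWC (KIBRA) family, scaffolds that bring the kinases together. WWC1 had 23.2 and 24.2 CPM in LGR5-high and 58.9 and 55.2 CPM in LGR5-negative, a log2 fold change of -1.27 (standard error 0.0958, adjusted p = 3.42e-04). WWC3 had a log2 fold change of -0.95 (adjusted p = 0.00153) and WWC2 one of -0.65 (adjusted p = 0.00808), which lost its call without the LGR5-high library of pig 95R. MOB1B, a cofactor of LATS kinases, fell by a log2 fold change of -1.04 (standard error 0.173, adjusted p = 0.00545). RASSF1, which binds the upstream kinases, had -0.81 (adjusted p = 6.10e-04), and AJUBA, which holds back LATS kinases, had -0.58 (adjusted p = 0.00701).
Of the core kinases and their partners, STK3 and SAV1 were not called. STK3 (MST2) had a log2 fold change of -0.05 (95% confidence interval -0.32 to 0.23, adjusted p = 0.756), and its partner SAV1 had 0.10 (-0.19 to 0.39, adjusted p = 0.514). STK4 (MST1) was lower by a log2 fold change of -0.35 (adjusted p = 0.0259) and NF2, the tumor suppressor merlin, by -0.32 (adjusted p = 0.0282). Both calls were lost when upper quartile scaling or library size only was used, and without either LGR5-high library or the LGR5-negative library of pig 88R. The call of STK4 was also lost with the block in DESeq2 and without the LGR5-negative library of pig 95R.

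The TEAD cofactors of the VGLL family compete with YAP1 and TAZ for TEAD proteins. VGLL4 had 140 and 120 CPM in LGR5-high and 95.1 and 105 CPM in LGR5-negative, a log2 fold change of 0.38 (adjusted p = 0.0328), which lost its call without either library of pig 88R. VGLL3 had 13.8 and 12.3 CPM in LGR5-high and 26.5 and 25.2 CPM in LGR5-negative, a log2 fold change of -0.99 (adjusted p = 0.00191). VGLL1 and VGLL2 had at most 3 counts in every library.
The 14-3-3 proteins bind phosphorylated YAP1 in the cytoplasm, and of their 7 genes 1 was called higher and 5 lower, beside 22.7% and 22.0% of all tested genes, with a median log2 fold change of -0.37. The 5 lower genes became 2, SFN and YWHAG, with library size only and without the LGR5-high library of pig 95R, and 3 without either library of pig 88R. SFN, the 14-3-3 gene of stratified epithelia, had 1180 and 1220 CPM in LGR5-high and 3050 and 2730 CPM in LGR5-negative. It fell by a log2 fold change of -1.27 (standard error 0.0973, adjusted p = 3.61e-04). YWHAG had a log2 fold change of -0.81 (adjusted p = 0.00102), YWHAH one of -0.43 (adjusted p = 0.0288), YWHAZ -0.37 (adjusted p = 0.0166) and YWHAB -0.35 (adjusted p = 0.0132). YWHAE was not called (-0.04, adjusted p = 0.717), and YWHAQ was the gene called higher, at 0.79 (adjusted p = 0.00114).

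Target genes of YAP1 and TAZ were found on both sides. Of the 19 listed target genes besides AMOTL2 and ANKRD1, 18 were tested, and 9 were called higher and 6 lower in LGR5-high, beside 22.7% and 22.0% of all tested genes. Their median log2 fold change was 0.11. PTPN14, called higher (0.53, adjusted p = 0.011), is also on the list of regulators and was counted in both. With the replicate block DOCK5 (-0.51, adjusted p = 0.011) and FJX1 (-0.36, adjusted p = 0.0194) were called lower as well. FOXF2 had between 1 and 8 counts in each library and was not tested.

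The 2 most used target genes went opposite ways. CTGF (CCN2), a secreted matricellular protein, had 29233 counts in pig 88R and 37880 in pig 95R in LGR5-high, and 1008 and 1675 in LGR5-negative. Every LGR5-high value was far above every LGR5-negative value. The mean was 999 ± 210 CPM (SD, n = 2 pigs) against 45.4 ± 14.2 CPM, a 22.0-fold increase with a log2 fold change of 4.46 (standard error 0.273, adjusted p = 1.85e-04). CYR61 (CCN1), its close relative, had 6126 and 7039 counts in LGR5-high, and 16209 and 15535 in LGR5-negative. It was 2.77-fold lower, with a log2 fold change of -1.47 (standard error 0.117, adjusted p = 4.02e-04), and its populations did not overlap either. The ratio of CTGF to CYR61 counts within a library was 4.77 and 5.38 in LGR5-high and 0.0622 and 0.108 in LGR5-negative. The ratio of CTGF to AMOTL2 counts was 6.41 and 8.71 in LGR5-high and 0.0714 and 0.137 in LGR5-negative.

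Among the other higher targets, TGFB2, a ligand of the TGF-beta pathway, had 77.3 and 73.2 CPM in LGR5-high and 16.1 and 22.0 CPM in LGR5-negative, a log2 fold change of 1.98 (adjusted p = 4.43e-04). The receptor tyrosine kinase gene AXL rose by a log2 fold change of 1.69 (adjusted p = 8.85e-04). F3, the gene of tissue factor, had 193 and 197 CPM in LGR5-high and 26.8 and 73.5 CPM in LGR5-negative. Its log2 fold change of 1.96 (adjusted p = 0.0145) was not called without the LGR5-high library of pig 95R. RBMS3 (1.99, adjusted p = 0.0203) and NT5E (1.65, adjusted p = 0.014) were low, at 4.21 CPM or less in every library. NT5E lost its call without the LGR5-high library of pig 95R, and RBMS3 without either LGR5-high library.

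Among the lower targets, IGFBP3, which binds insulin-like growth factors, had 6.84 and 8.02 CPM in LGR5-high and 50.8 and 29.8 CPM in LGR5-negative, a log2 fold change of -2.44 (standard error 0.275, adjusted p = 0.00131). The kinase gene NUAK2 fell by a log2 fold change of -1.29 (adjusted p = 0.00195) and ASAP1 by -0.60 (adjusted p = 0.00524). GADD45A, a gene of the DNA damage response, had -0.50 (adjusted p = 0.0401), and MYOF, a membrane repair protein, had -0.32 (adjusted p = 0.0248). The last 2 calls were lost when upper quartile scaling or library size only was used. They were also lost without the LGR5-high library of pig 95R or the LGR5-negative library of pig 88R, that of GADD45A without the LGR5-high library of pig 88R as well, and that of MYOF without the LGR5-negative library of pig 95R.

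**Figure D4:**
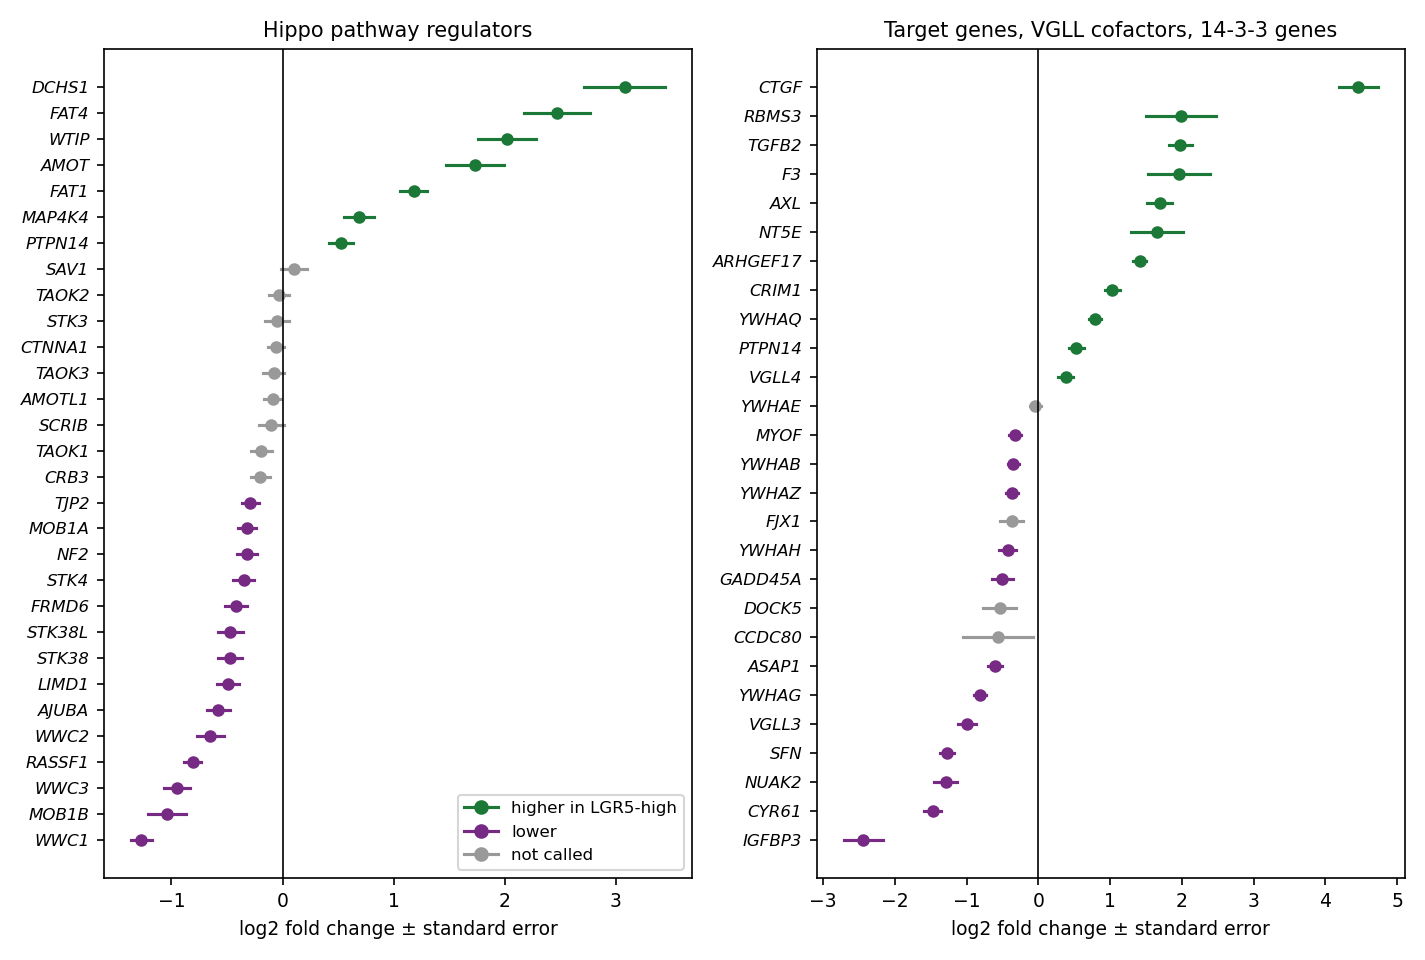
Log2 fold change of LGR5-high over LGR5-negative with its standard error for the Hippo regulators (left) and for the target genes, VGLL cofactors and 14-3-3 genes (right). Green genes were called higher, purple genes lower and gray genes not called. DCHS1 at 3.08 and WWC1 at -1.27 end the left panel, and CTGF at 4.46 and IGFBP3 at -2.44 the right one.

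Genes of other cell types moved with the populations. Of the 8 fibroblast markers tested, 3 were called higher and 4 lower, beside 22.7% and 22.0% of all tested genes. COL1A2 was higher (log2 fold change 3.70), while LUM and PDGFRA had 5 counts or fewer in both LGR5-high libraries. COL3A1 (-3.09) and DCN (-0.82) were called lower too. The 8 fibroblast markers summed to 1230 and 1480 CPM in LGR5-high and 671 and 366 CPM in LGR5-negative. In LGR5-high most of this sum was COL1A2, THY1 and COL1A1, so it does not stand for the whole list. Of the 6 muscle markers tested, 5 were called higher and 0 lower, beside the same 22.7% and 22.0%. All 9 listed muscle markers summed to 405 and 293 CPM in LGR5-high and 17.4 and 15.8 CPM in LGR5-negative, most of it TAGLN. DES and MYL2 had at most 3 counts in every library. The muscle markers and the fibroblast sum moved in the direction of TEAD2 and CTGF, and their part in these results was not tested.
In the other direction, 5 of 6 endothelial markers were called lower, beside 22.0% of all tested genes. CDH5 had 1 count in both LGR5-high libraries. Also called lower were 3 of the 4 immune markers and 4 of the 5 melanocyte markers tested, beside that same share. The endothelial markers summed to 6.28 and 7.60 CPM in LGR5-high and to 21.4 and 21.5 CPM in LGR5-negative, the immune markers to 1.95 and 1.39 against 18.8 and 25.4 CPM, and the melanocyte markers to 36.7 and 32.2 against 61.1 and 233 CPM. They moved in the direction of AMOTL2, CYR61 and IGFBP3, and their part in those differences was not tested. Of the 4 nerve and Schwann markers tested, 2 were called higher and 1 lower, beside 22.7% and 22.0% of all tested genes. The list summed to 58.9 and 78.9 CPM in LGR5-high and to 5.44 and 10.8 CPM in LGR5-negative, with NGFR the largest part in LGR5-high.

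Reads can be shared where annotated genes overlap, and the strand setting of the counting is not given. In the RefSeq annotation of Sscrofa11.1, 6 of the 10 members overlap another gene of the table. LOC102157672, which overlaps YAP1, had between 521 and 758 counts, and LOC110259298, which overlaps TEAD1, had 380 and 317 counts in LGR5-high and 157 and 165 counts in LGR5-negative. CD37, which overlaps TEAD2, had between 3 and 10 counts, and LOC110256315, which overlaps WWTR1, between 0 and 8. LOC110261507, which overlaps TEAD3, had 60 and 71 counts in LGR5-high and 111 and 114 counts in LGR5-negative. RPP30, which overlaps ANKRD1, had between 1028 and 1173 counts. AMOTL2, LATS1, LATS2 and TEAD4 overlap none. Of the target genes, CYR61 overlaps ZNHIT6, which had between 681 and 797 counts. The part of shared reads in these counts was not tested.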

How the data were processed

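Poly(A) RNA of sorted epidermal cells was read in paired ends. What the authors deposited are raw counts by gene symbol, not normalized, for 4 libraries. The submitters' processing notes name Trimmomatic 0.36, STAR 2.5.2b, featureCounts and Subread 1.5.2. The genome build, annotation and strand setting are not given in the sources used here. Counts of 1 row with no gene name, between 0.36% and 0.626% of a library, were left out.

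The main test was that of edgeR 4.0.16 under R 4.3.3 (filterByExpr, minimum count 10, minimum total count 15; TMM; quasi-likelihood test, 2-sided, Benjamini-Hochberg adjustment). The standard error is the log2 fold change divided by the square root of F. Log2 fold changes of a single pig used a prior count of 2. DESeq2 1.42.0, limma-voom (limma 3.58.1), other scalings and filters, Student's t-test on log2(CPM + 1), which the study's methods name, and leaving out each library were alternatives. Both populations of a pig come from the same animal, and its libraries deviated together from their population means (correlation 0.37 across genes), so the block by pig was fitted as well. The 2 libraries of each population were not repeats of 1 library (chi-square per degree of freedom 20.3 and 23.1). The tests were tested on simulated data. Floors cover counting error only.

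The members and lists were chosen with earlier results of these data known. Named are all members, up to 6 called genes of each pathway list in each direction, and list genes at 3 counts or fewer. STK3, STK4, SAV1, NF2, AMOTL1, DOCK5, FJX1, PTPN14, KRT15, COL1A1, COL3A1, DCN and THY1 were named after their values were seen. KRT14 was not matched. Plots used matplotlib 3.10.9. No sequences were used here.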

Additional observations from a re-analysis of the deposited data

Results flagged for a closer look

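Genes are given here whose log2 fold change had opposite signs in the 2 pigs. The difference between the pigs was not tested, since each pig has 1 library of each population. LATS1 had 0.23 in pig 88R and -0.01 in pig 95R, and SAV1 had 0.20 and -0.01. STK3 had 0.12 in pig 88R and -0.21 in pig 95R. SCRIB had -0.25 in pig 88R and 0.04 in pig 95R, and TAOK2 had -0.11 and 0.05. None of these 5 genes was called by edgeR's quasi-likelihood test, with or without the replicate block.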

How the results depend on the processing

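TEAD2 and AMOTL2 were called in the same direction in 14 of 15 alternatives each, and not by the t-test (log2 differences 2.33 and -1.75, adjusted p = 0.0512 and 0.0592). The alternative with a prior count of 2 took its adjusted p-values from the main test, so its calls could not differ. No member changed its direction. The number of members called higher was 1 without the block, beside 22.7% of all tested genes. It was 4 with upper quartile scaling (26.9%), 5 with library size only (34.2%) and 5 with the replicate block (28.5%). DESeq2 called 2 members, beside 3329 of 15980 genes, and 3 with the replicate block, beside 18.8%. With at least 10 counts in every library 2 were called, beside 3089 of 14105 genes. The t-test called 0, beside 544 of 15980 genes. Fits that left out 1 library called as many members higher or more. Without the block 1 member was called lower, beside 22.0% of all tested genes. That number was 2 with the replicate block (27.2%) and 0 with the t-test, beside 502 of 15980 genes. Fits that left out 1 library called as many members lower or more. The t-test called 0 regulators higher and 2 lower, and 0 target genes and 0 of the 14-3-3 genes in either direction. It gave 6391 genes an unadjusted p-value under 0.05 and called 544 genes higher and 502 lower. The regulators called lower, 14 in all, were 6 with library size only and between 5 and 9 when a library was left out. Why these counts moved was not tested. In edgeR the replicate block changed no call of the named pathway genes other than those of the 5 members, DOCK5 and FJX1, and in DESeq2 it ended that of STK4. Values per transcript length were not computed, since no transcript lengths were used here. With 1 or fewer counts, ANKRD1 is limited by depth, and whether its reads are shared with the overlapping RPP30 was not tested.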
